A study of Homo sapiens with 9 samples.

Results

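The genes described here are 40 members of the cell division programme, measured by 73 of the 22215 probe sets that are not array controls. A probe set was taken when the array annotation gave exactly 1 symbol for it and that symbol was on the list. The members were sorted by role into 12 genes of DNA replication and nucleotide supply (21 probe sets), 8 genes that control entry into S phase (14 probe sets) and 20 genes of the G2 phase and mitosis (38 probe sets). All 40 were found, no filter on low signal was applied, and all 73 probe sets were tested. Where a gene had several probe sets, the brightest on average over the 9 arrays stands for it unless another is named. On that measure 34 of the 40 genes lay above the 75th percentile of all probe sets, with a median at percentile 88.3, and E2F2 was the dimmest at percentile 24.4.

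The cells were HepG2, an established human hepatoma line. Before treatment they were moved to medium whose serum had been stripped of thyroid hormone, and all arrays were hybridised with RNA taken after 24 h. One group of 3 arrays received 10 nM GC-1, another group of 3 received 10 nM of the thyroid hormone triiodothyronine (T3), and 3 arrays came from cells given vehicle. In GC-1 the iodine atoms of T3 are exchanged for methyl groups on the inner ring and for an isopropyl group on the outer ring, the oxygen that joins the rings for a methylene group, and the amino acid side chain for an oxyacetic acid. GC-1 binds the beta form of the thyroid hormone receptor with preference. The labels do not say whether replicates were separate cultures, so p-values cover no more than the spread among these 9 samples, part or all of which could be technical.

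As background, a dividing cell licenses its replication origins in G1 by loading the MCM helicase with the help of CDC6. Cyclin E with CDK2 then starts S phase, in which the helicase, the sliding clamp PCNA and the enzymes that supply deoxynucleotides work together. Cyclin A with CDK2 and CDK1, cyclin B with CDK1, Aurora and Polo-like kinases and the spindle checkpoint carry the cell through G2 and mitosis, and the ubiquitin ligase activator CDC20 triggers anaphase. Replication genes are classically driven by E2F factors, and mitosis genes by factors that act through CCAAT boxes and the cell cycle homology region (CHR). In liver, T3 is known as a growth stimulus in rodents, while in some hepatoma lines it has been described as slowing proliferation.

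The promoters below show letters known from the control of replication and mitosis genes. Each stretch is the 150 bases before a RefSeq transcription start in GRCh38.p14, written 5′ to 3′ on the gene's strand. TYMS lies at chr18:657503-657652 on the plus strand, RRM2 at chr2:10122589-10122738 on the plus strand (1 of 2 starts in the table), MCM6 at chr2:135876444-135876593 on the minus strand, E2F1 at chr20:33686386-33686535 on the minus strand, CDC20 at chr1:43358831-43358980 on the plus strand and MKI67 at chr10:128126424-128126573 on the minus strand. TYMS, RRM2, MCM6 and E2F1 are shown because each was lower in at least 1 comparison described below, CDC20 because it was the mitosis member that fell with GC-1, and MKI67 because it did not pass in any comparison. Capitals mark any of the letters searched on either strand: CCAAT for the CCAAT box, TTTGAA for the CHR, and TTTCGCGC, TTTGGCGC or TTTCCCGC for E2F. The RRM2 stretch holds CCAAT boxes and none of the E2F letters. In MCM6 the E2F letters of both strands overlap, and the first run of capitals belongs to a match that starts just upstream of the stretch. In MKI67 the second CHR match overlaps a CCAAT box on the other strand.
TYMS: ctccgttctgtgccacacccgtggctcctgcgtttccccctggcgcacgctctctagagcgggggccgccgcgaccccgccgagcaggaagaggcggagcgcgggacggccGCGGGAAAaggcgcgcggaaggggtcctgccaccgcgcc
RRM2: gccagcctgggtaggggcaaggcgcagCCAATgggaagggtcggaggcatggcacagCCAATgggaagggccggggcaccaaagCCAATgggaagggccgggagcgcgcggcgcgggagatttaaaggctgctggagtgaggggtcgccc
MCM6: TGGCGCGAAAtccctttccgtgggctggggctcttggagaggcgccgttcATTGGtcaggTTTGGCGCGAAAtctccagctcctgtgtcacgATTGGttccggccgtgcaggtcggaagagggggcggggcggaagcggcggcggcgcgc
E2F1: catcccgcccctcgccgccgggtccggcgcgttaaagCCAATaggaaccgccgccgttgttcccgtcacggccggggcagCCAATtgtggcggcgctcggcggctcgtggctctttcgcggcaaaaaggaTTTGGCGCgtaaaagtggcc
CDC20: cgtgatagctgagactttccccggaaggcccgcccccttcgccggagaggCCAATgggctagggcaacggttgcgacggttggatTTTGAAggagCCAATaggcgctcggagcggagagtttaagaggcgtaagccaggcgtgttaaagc
MKI67: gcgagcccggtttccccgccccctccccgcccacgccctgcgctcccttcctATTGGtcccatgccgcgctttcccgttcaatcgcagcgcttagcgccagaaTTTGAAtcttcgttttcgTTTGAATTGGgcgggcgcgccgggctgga

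Windows of 250 bases before to 50 bases after a start were given for 33 of the 40 members, and a gene with several windows counted once. E2F letters were found in 7 of 10 replication members (MCM2, MCM3, MCM6, MCM7, PCNA, CDC6 and TYMS), in 3 of 5 members of S phase entry (E2F1, E2F2 and CDC25A) and in 2 of 18 mitosis members (CDK1 and NUSAP1). Over all 27305 genes with a window the share was 3.3%, and over all 35116 windows 2.74%. The CHR letters were found in 12 of 18 mitosis members and 1 of 10 replication members (RRM1), against 18.2% of all genes and 15.2% of all windows. A CCAAT box was found in 17 of 18 mitosis members and 8 of 10 replication members, against 39.7% of all genes and 34.6% of all windows. These matches describe the letters of the windows, and binding was not measured.

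The median log2 signal of an array was between 7.015 and 7.056, and no pair of arrays held identical values. T3 replicates 1 and 2 had wider distributions than the other 7 arrays, with interquartile ranges of 2.992 and 2.973 log2 units, against 2.832 to 2.851 on GC-1 arrays, 2.88 on T3 replicate 3 and 2.867 to 2.881 on vehicle arrays. Hepatocyte markers chosen to check the cell line were bright: AFP, ALB, APOA1, APOB, FGB, SERPINA1, TF and TTR summed to between 118100 and 121500 linear signal units on GC-1 arrays, 118600 and 122800 on T3 arrays and 111900 and 113900 on vehicle arrays. Of these 8 genes FGB rose with GC-1 and with T3 (log2 0.65 and 0.69, limma adjusted p = 5.62e-05 and 2.13e-05), APOB rose with T3 (0.21, limma adjusted p = 0.0419), and 7 of 8 were positive with each ligand. Of 12 listed markers of blood, endothelial, stromal and glial cells 11 were measured, 0 changed in any comparison with vehicle (limma, adjusted p under 0.05), with 1 for GC-1 and 2 for T3 at an unadjusted p under 0.05, and they summed to between 2432 and 2536 on GC-1 arrays, 2247 and 2628 on T3 arrays and 2306 and 2507 on vehicle arrays, and ACTA2 and COL1A1 were the brightest of them. The part of these marker levels in the results was not tested.

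Against vehicle, the members as a set leaned lower with both ligands, with changes of 1.16-fold to 1.30-fold in the probe sets that passed. The 20 mitosis genes, each by its brightest probe set, were split with T3, 10 negative and 10 positive. With GC-1, 6 of the 73 member probe sets fell at an adjusted p under 0.05 and 0 rose (limma, Benjamini-Hochberg over all probe sets). Over the whole array 0.986% of probe sets fell with GC-1 and 1.81% rose. The 6 were 3 probe sets of MCM4, the TYMS probe set that represents the gene, the second RRM2 probe set and CDC20. With T3, 2 of the 73 fell, the representative probe sets of CDK2 and E2F1, and 0 rose, against 1.5% lower and 4% higher over the array. Which ligand gave more calls depended on the scaling: median and MAD scaling gave 3 member probe sets with GC-1 and 9 with T3, and the interquartile range of each array as a covariate gave 4 and 7. The replication medians then stood at -0.17 with GC-1 and -0.21 with T3 under the first, and at -0.17 and -0.20 under the second. The share of all probe sets that passed was not counted under either setting. Whether the calls moved more among members than over the array is thus not known.

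The signs were more uniform than the calls. All 3 GC-1 arrays lay below all 3 vehicle arrays in 37 of the 73 member probe sets, against 15.6% of all probe sets, and above them in 0, against 10.8%. All 3 T3 arrays lay below all 3 vehicle arrays in 30 of the 73, against 12.4% of all probe sets, and above them in 3, against 12.5%. At an unadjusted p under 0.05, 33 of the 73 were lower and 0 higher with GC-1, against 8.89% and 7% of all probe sets, and 23 were lower and 2 higher with T3, against 10.4% and 10.7%. The median log2 change of the 40 genes was -0.14 with GC-1 and -0.07 with T3, while the medians over all probe sets were -0.0043 and -0.015. The brightest probe sets of the 40 genes, 34 of them above the 75th percentile of signal, varied less between replicates than all probe sets, dim ones included. Their median SD was 0.0416 in GC-1 arrays, 0.0539 in T3 arrays and 0.0484 in vehicle arrays, against 0.0639, 0.0865 and 0.0608 over all probe sets. The spread of the 73 was not set against that of probe sets of like signal. A smaller spread lets a smaller change pass. In RNA from a whole culture, fewer cells in a phase of the cycle and less of these RNAs per cell cannot be told apart.

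**Figure D1:**
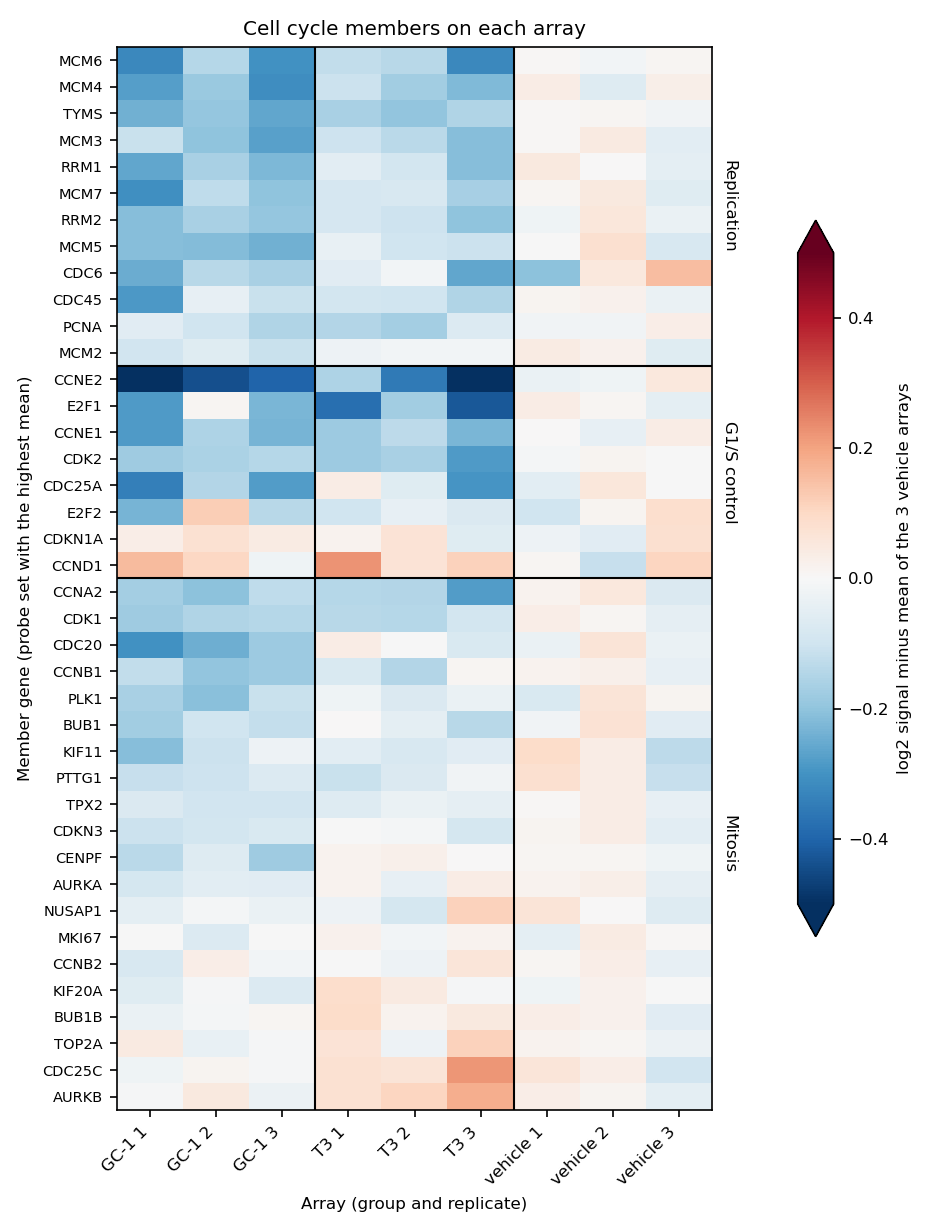
log2 signal of the 40 member genes (rows, grouped by role) on the 9 arrays (columns: GC-1, T3, vehicle), as the difference from the mean of the 3 vehicle arrays. Colours run from -0.5 to 0.5 and values beyond take the end colour. Replication genes and the CCNE1, CCNE2 and CDK2 rows are below 0 across GC-1 and T3 arrays, some only barely, such as MCM2 on T3 arrays. E2F1 is below 0 in all of them but GC-1 replicate 2, while the lower mitosis rows stay near 0.

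The mean of both ligand groups was also set against vehicle. It uses the same vehicle arrays, so it repeats the comparisons above with more arrays rather than adding an independent one. In this comparison 10 of the 73 member probe sets fell and 0 rose, against 1.9% lower and 3.63% higher over the array. They stood for 8 genes: TYMS, MCM4 (3 probe sets), MCM6 and RRM2 among the replication members and CCNE1, CCNE2, CDK2 and E2F1 among those of S phase entry. For RRM2 and E2F1 it was the second probe set that passed. Mitosis members gave 0 of 38 probe sets past the threshold here, with 10 lower at an unadjusted p under 0.05, against 9.89% of all probe sets.

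For counts of genes, the background is the 11963 genes with a probe set of their own, each by its brightest. With GC-1, 1.16% of them fell and 2.1% rose at an adjusted p under 0.05, 9.49% were lower at an unadjusted p under 0.05, and 17.3% had all 3 GC-1 arrays below all 3 vehicle arrays. With T3, 1.71% fell and 4.51% rose, 11.1% were lower and 11.4% higher at an unadjusted p, 13.3% had all 3 T3 arrays below and 13.6% all 3 above all 3 vehicle arrays. A negative log2 change was found in 6226 of the 11963 genes with GC-1 and in 6703 with T3.

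Among the replication members, all 12 genes had a negative log2 change with both ligands, and 2 of them passed with GC-1 and 0 with T3. The median log2 change was -0.20 with GC-1 (range -0.26 to -0.09) and -0.12 with T3 (range -0.20 to -0.02). All 3 GC-1 arrays lay below all 3 vehicle arrays in 10 of the 12 genes, the exceptions being CDC6 and MCM2, and all 3 T3 arrays did so in 9.

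TYMS, thymidylate synthase, makes the thymidine nucleotide that DNA synthesis needs and lies at chr18:657653-673578 in GRCh38.p14. Its log2 signal was 12.12, 12.16 and 12.10 on GC-1 arrays, 12.20, 12.16 and 12.21 on T3 arrays, and 12.36, 12.37 and 12.34 on vehicle arrays. Neither ligand group overlapped the vehicle group. TYMS fell 1.17-fold with GC-1 (log2 -0.23 ± 0.046 SE, n = 3 per group, limma adjusted p = 0.0232), and with T3 the log2 change was -0.17 ± 0.046 (limma adjusted p = 0.0589). A second, dim TYMS probe set (percentile 30.3) did not follow it, with log2 changes of -0.07 and -0.04.

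MCM4 is a subunit of the replicative helicase and was measured by 4 probe sets. The brightest read 10.54, 10.64 and 10.51 on GC-1 arrays, 10.71, 10.65 and 10.60 on T3 arrays, and 10.86, 10.76 and 10.85 on vehicle arrays. GC-1 arrays were lowest and vehicle arrays highest, and the T3 arrays overlapped only the GC-1 arrays. With GC-1 the log2 changes of the 4 probe sets, from bright to dim, were -0.26, -0.24, -0.38 and -0.30, of which the first 3 passed (limma adjusted p = 0.0347, 0.0323 and 0.0123) and the dimmest did not (0.131). With T3 they were -0.17, -0.11, -0.22 and -0.16, and the smallest adjusted p was 0.0848.

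The other MCM subunits had the same sign in smaller or less certain amounts. MCM6 read 9.78, 9.96 and 9.79 on GC-1 arrays, 9.97, 9.96 and 9.77 on T3 arrays, and 10.10, 10.08 and 10.11 on vehicle arrays. The vehicle arrays were close together and above all 6 ligand arrays. MCM6 fell in the ligand mean (log2 -0.23 ± 0.058 SE, limma adjusted p = 0.0488), with -0.25 for GC-1 (adjusted p = 0.0792) and -0.20 for T3 (0.126). MCM5 read 9.50, 9.50 and 9.47 on GC-1 arrays, 9.67, 9.61 and 9.60 on T3 arrays, and 9.71, 9.79 and 9.63 on vehicle arrays. Its GC-1 arrays lay below all others, at a log2 change of -0.22 that missed the threshold (limma adjusted p = 0.0522), while its T3 arrays overlapped the vehicle arrays (-0.08). MCM3 and MCM7 had log2 changes of -0.19 and -0.21 with GC-1 and of -0.15 and -0.11 with T3, and MCM2 of -0.09 and -0.02, none past the threshold.

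RRM1 and RRM2 form ribonucleotide reductase, which makes deoxynucleotides. The brighter RRM2 probe set read 12.03, 12.08 and 12.05 on GC-1 arrays, 12.16, 12.14 and 12.05 on T3 arrays, and 12.23, 12.30 and 12.21 on vehicle arrays. Ligand arrays were all below vehicle arrays, but the log2 changes of -0.19 with GC-1 and -0.13 with T3 did not pass (limma adjusted p = 0.0856 and 0.179). The second RRM2 probe set read 11.11, 11.23 and 11.18 on GC-1 arrays, 11.34, 11.29 and 11.23 on T3 arrays, and 11.43, 11.38 and 11.42 on vehicle arrays. It fell 1.18-fold with GC-1 (log2 -0.24 ± 0.052 SE, limma adjusted p = 0.0376), and its T3 change was -0.13 (0.197). RRM1 had log2 changes of -0.22 with GC-1 and -0.12 with T3 (limma adjusted p = 0.0798 and 0.271).

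PCNA, the sliding clamp of DNA polymerases, read 12.23, 12.19 and 12.14 on GC-1 arrays, 12.14, 12.12 and 12.22 on T3 arrays, and 12.27, 12.27 and 12.32 on vehicle arrays. Its ligand arrays were all below its vehicle arrays by a small margin, with log2 changes of -0.10 for GC-1 and -0.13 for T3 that did not pass (limma adjusted p = 0.364 and 0.179). CDC6, the loader of the helicase, varied within the vehicle group from 9.05 to 9.41, and its log2 changes of -0.18 and -0.11 did not pass. CDC45, which travels with the helicase, had log2 changes of -0.15 with GC-1 and -0.11 with T3, also short of the threshold.

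**Figure D2:**
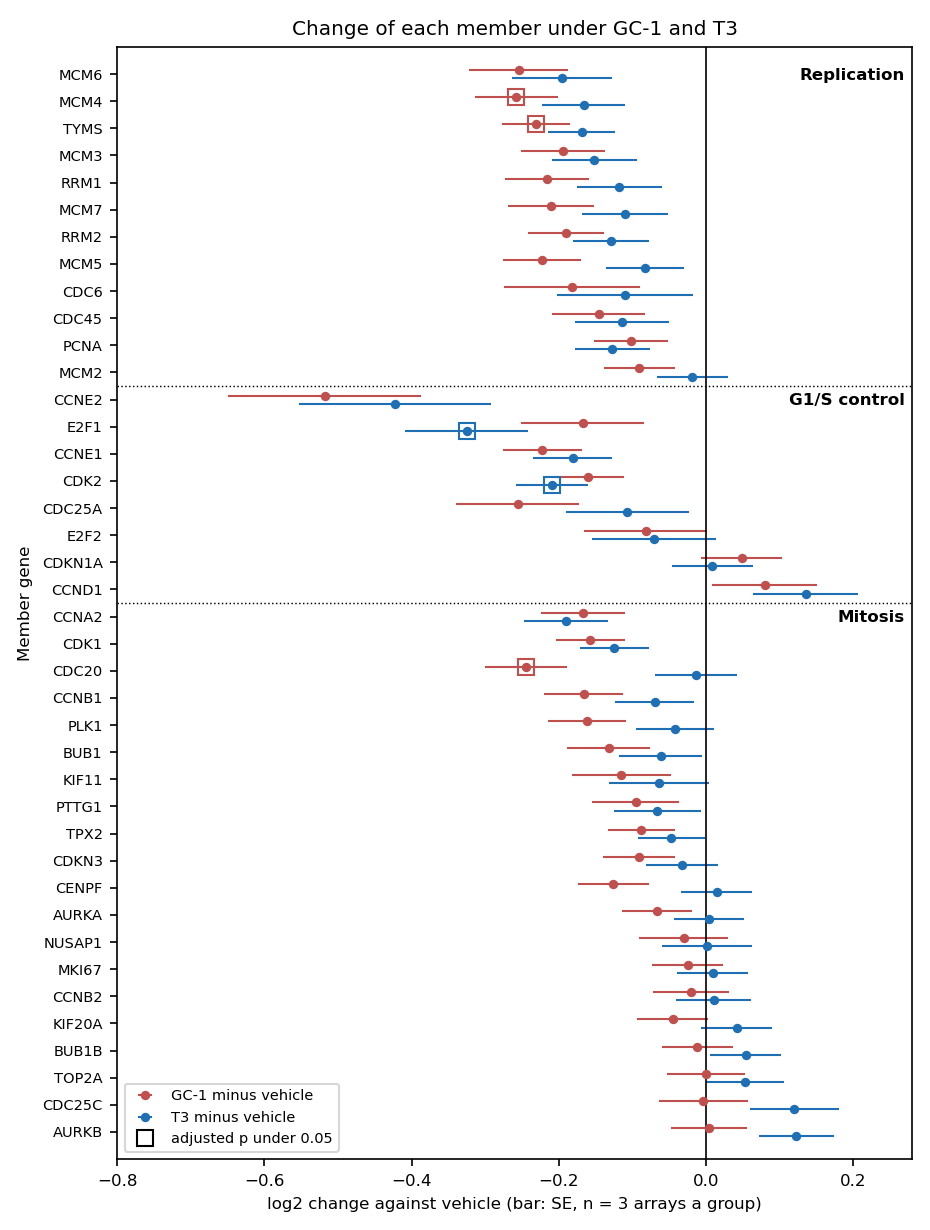
log2 change of each of the 40 member genes against vehicle (horizontal axis) with GC-1 (red) and T3 (blue), with bars for the standard error and squares around changes with an adjusted p under 0.05. All 12 replication genes lie left of 0 for both ligands, and the 5 squares are on MCM4, TYMS and CDC20 with GC-1 and on E2F1 and CDK2 with T3.

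Of the 8 genes of S phase entry, 2 passed with T3 and 0 with GC-1 (limma; 4 of the 8 were lower at an unadjusted p under 0.05 with each), and the inhibitor and the cyclin D gene had the opposite sign to the rest. Their median log2 change was -0.16 with GC-1 and -0.14 with T3. CDK2, the kinase that cyclin E activates, lies at chr12:55966830-55972789. It read 9.23, 9.25 and 9.26 on GC-1 arrays, 9.22, 9.24 and 9.12 on T3 arrays, and 9.40, 9.42 and 9.40 on vehicle arrays. Both ligand groups lay below the tightly grouped vehicle arrays. CDK2 fell 1.16-fold with T3 (log2 -0.21 ± 0.049 SE, limma adjusted p = 0.032), and its log2 change with GC-1 was -0.16 ± 0.049 (limma adjusted p = 0.126). Its second probe set had -0.14 with GC-1 and -0.18 with T3, and the third, at percentile 22.6, had -0.06 and -0.09, none past the threshold.

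E2F1, the transcription factor that drives S phase genes, lies at chr20:33675477-33686385. It read 8.23, 8.52 and 8.28 on GC-1 arrays, 8.13, 8.34 and 8.09 on T3 arrays, and 8.55, 8.52 and 8.46 on vehicle arrays. T3 arrays were all below vehicle arrays, while GC-1 replicate 2 lay within the vehicle range. E2F1 fell 1.25-fold with T3 (log2 -0.33 ± 0.084 SE, limma adjusted p = 0.0483), and with GC-1 the log2 change was -0.17 ± 0.084 (limma adjusted p = 0.367). The second E2F1 probe set gave nearly equal log2 changes of -0.18 with GC-1 and -0.16 with T3, neither past the threshold, and passed in the ligand mean (log2 -0.17, limma adjusted p = 0.0451). E2F2 was dim, with log2 changes of -0.08 and -0.07 that did not pass.

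The E cyclins activate CDK2. CCNE1, at chr19:29811991-29824312, read 9.21, 9.34 and 9.26 on GC-1 arrays, 9.31, 9.36 and 9.26 on T3 arrays, and 9.49, 9.45 and 9.53 on vehicle arrays. All ligand arrays lay below all vehicle arrays. CCNE1 fell in the ligand mean (log2 -0.20 ± 0.046 SE, limma adjusted p = 0.0284), with -0.22 for GC-1 (adjusted p = 0.053) and -0.18 for T3 (0.0776). CCNE2 read 6.41, 6.68 and 6.72 on GC-1 arrays, 6.97, 6.77 and 6.36 on T3 arrays, and 7.09, 7.10 and 7.17 on vehicle arrays. The order was the same, but the ligand arrays spread over a wider range than the vehicle arrays, and GC-1 replicate 1 and T3 replicate 3 were lowest. CCNE2 fell 1.39-fold in the ligand mean (log2 -0.47 ± 0.11 SE, limma adjusted p = 0.0359), the largest change among the member genes in that comparison, with -0.52 for GC-1 and -0.42 for T3 (adjusted p = 0.0665 and 0.0924). Its second probe set, at percentile 27.2, had -0.18 and -0.30 and did not pass.

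CDC25A, the phosphatase that activates CDK2, had log2 changes of -0.26 with GC-1 and -0.11 with T3, and its second probe set -0.30 and -0.17, none past the threshold. CCND1, cyclin D1, read 9.94, 9.88 and 9.76 on GC-1 arrays, 10.00, 9.85 and 9.89 on T3 arrays, and 9.79, 9.66 and 9.88 on vehicle arrays. In this probe set the groups overlapped, and its log2 changes of 0.08 with GC-1 and 0.14 with T3 did not pass (limma adjusted p = 0.658 and 0.314). A second CCND1 probe set, at percentile 78.5, read 9.03, 8.95 and 8.86 on GC-1 arrays, 9.042, 9.12 and 9.092 on T3 arrays, and 8.862, 8.878 and 9.041 on vehicle arrays. Its T3 arrays lay narrowly above all others. The log2 changes of 0.02 with GC-1 and 0.16 with T3 did not pass (limma adjusted p = 0.928 and 0.187). CDKN1A, the CDK inhibitor p21, read 9.87, 9.92 and 9.88 on GC-1 arrays, 9.86, 9.91 and 9.78 on T3 arrays, and 9.82, 9.79 and 9.92 on vehicle arrays. Its groups overlapped throughout, with 95% confidence intervals of the log2 change of -0.07 to 0.17 for GC-1 and -0.11 to 0.13 for T3.

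**Figure D3:**
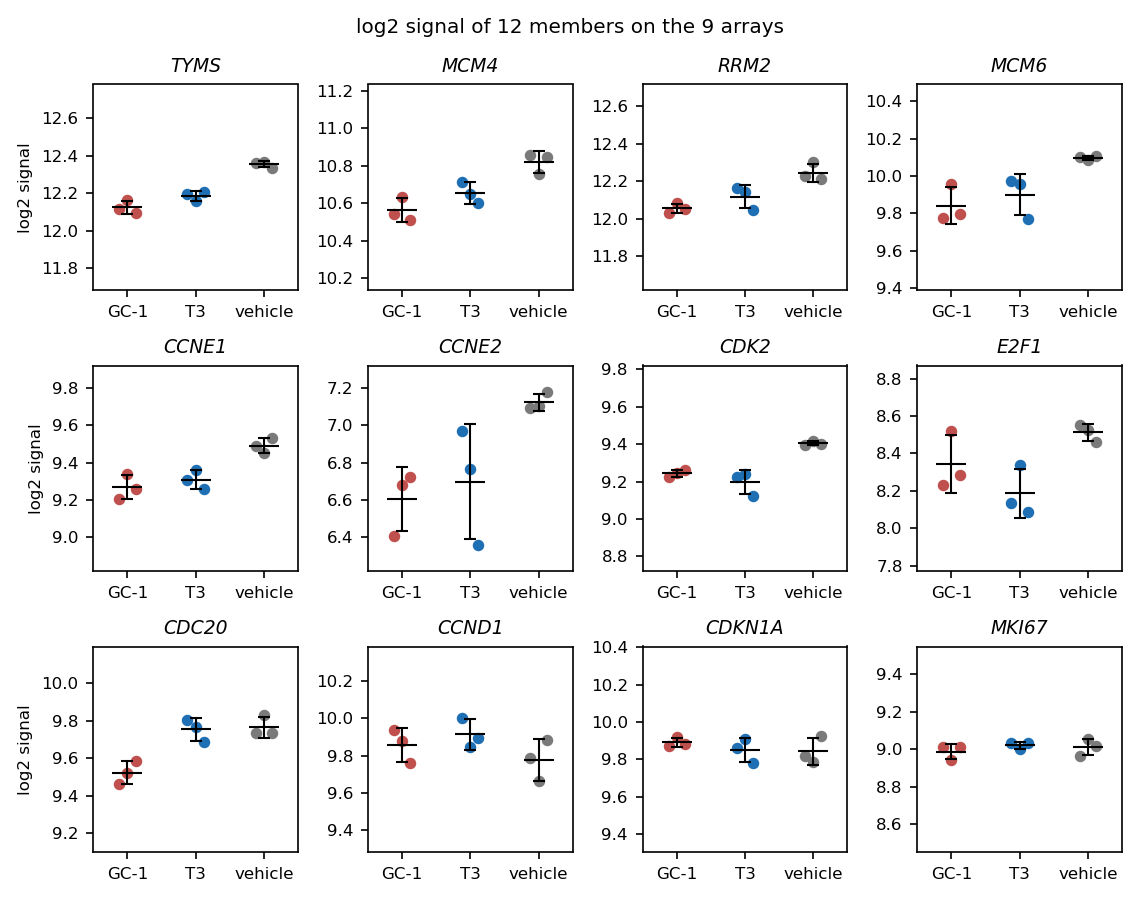
log2 signal of 12 members on the 9 arrays, in the order GC-1, T3, vehicle, with the mean and SD of each group of 3. Each panel spans the same height in log2 units. TYMS, MCM4, RRM2, MCM6, CCNE1, CCNE2 and CDK2 have all ligand arrays below all vehicle arrays, while CCND1, CDKN1A and MKI67 overlap.

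The 20 mitosis members had medians closer to 0 than the replication members. With GC-1, 18 of them had a negative log2 change, 10 had all 3 GC-1 arrays below all 3 vehicle arrays, and 1, CDC20, passed. With T3 the signs were split evenly, 10 negative and 10 positive, 2 had all T3 arrays below vehicle and 2 all above, and 0 passed (limma), with 2 lower and 1 higher at an unadjusted p under 0.05. With T3 these gene counts were at or below the shares of all genes given above, but counts of all 38 probe sets leaned lower. At an unadjusted p under 0.05, 8 of the 38 were lower and 1 higher with T3, against 10.4% and 10.7% of all probe sets. All 3 T3 arrays lay below all 3 vehicle arrays in 9 of the 38, against 12.4%, and above them in 2, against 12.5%. The median log2 change was -0.09 with GC-1 and -0.006 with T3, and the T3 value was -0.038 after quantile normalization and -0.072 with median and MAD scaling.

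CDC20, at chr1:43358981-43363203, read 9.46, 9.52 and 9.58 on GC-1 arrays, 9.80, 9.77 and 9.69 on T3 arrays, and 9.73, 9.83 and 9.73 on vehicle arrays. The GC-1 arrays lay below all 6 others, and the T3 and vehicle arrays were mixed. CDC20 fell 1.18-fold with GC-1 (log2 -0.24 ± 0.056 SE, limma adjusted p = 0.0424), and with T3 its log2 change was -0.01 (95% confidence interval -0.14 to 0.11).

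The A and B cyclins and CDK1 follow. CCNA2, cyclin A2, read 10.24, 10.21 and 10.29 on GC-1 arrays, 10.27, 10.27 and 10.13 on T3 arrays, and 10.43, 10.47 and 10.34 on vehicle arrays. All ligand arrays lay below all vehicle arrays, at log2 changes of -0.17 with GC-1 and -0.19 with T3 that did not pass (limma adjusted p = 0.175 and 0.0848). CDK1, the kinase that starts mitosis, had the same order in all 3 of its probe sets, with log2 changes of -0.16, -0.16 and -0.13 for GC-1 and -0.12, -0.15 and -0.12 for T3. CCNB1, cyclin B1, had -0.17 with GC-1 and -0.07 with T3, and CCNB2 had -0.02 and 0.01. None of these passed the threshold.

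PLK1, a kinase of mitotic entry and the spindle, read 9.09, 9.04 and 9.13 on GC-1 arrays, 9.23, 9.17 and 9.22 on T3 arrays, and 9.17, 9.31 and 9.26 on vehicle arrays. Only the GC-1 arrays stood apart, with a log2 change of -0.16 (limma adjusted p = 0.157). CENPF, a kinetochore protein, read 9.41, 9.48 and 9.36 on GC-1 arrays, 9.56, 9.57 and 9.54 on T3 arrays, and 9.55, 9.55 and 9.52 on vehicle arrays. The GC-1 arrays lay below all others and the T3 arrays overlapped the vehicle arrays, at log2 changes of -0.13 and 0.015, neither past the threshold. The second CENPF probe set had -0.24 with GC-1 and -0.11 with T3, with all ligand arrays below all vehicle arrays, and did not pass either. AURKB, the kinase of the chromosomal passenger complex, read 8.94, 8.99 and 8.91 on GC-1 arrays, 9.02, 9.05 and 9.12 on T3 arrays, and 8.97, 8.96 and 8.89 on vehicle arrays. Its T3 arrays were above all others, at a log2 change of 0.12 that did not pass (limma adjusted p = 0.199).

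MKI67, which encodes the proliferation marker Ki-67, was measured by 4 probe sets. The brightest read 9.01, 8.94 and 9.01 on GC-1 arrays, 9.03, 9.00 and 9.03 on T3 arrays, and 8.96, 9.05 and 9.02 on vehicle arrays. The groups overlapped, and the 95% confidence interval of the log2 change was -0.13 to 0.08 for GC-1 and -0.10 to 0.11 for T3. The 4 probe sets had log2 changes between -0.03 and -0.004 with GC-1 and between -0.02 and 0.08 with T3. TOP2A, the topoisomerase that untangles sister DNA, had log2 changes of 0.000 and 0.053 with GC-1 and T3 in its brighter probe set. The other TOP2A probe set, nearly as bright, had -0.012 and -0.074. BUB1B, a spindle checkpoint kinase, had -0.01 and 0.05. BUB1, another checkpoint kinase, was read by 5 probe sets, with log2 changes between -0.13 and 0.04 with GC-1 and between -0.21 and -0.004 with T3, none past the threshold.

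Set side by side within each array, the replication members were lower relative to vehicle than the mitosis members on all 6 ligand arrays. The median log2 difference of replication genes from the vehicle mean was -0.24, -0.15 and -0.21 on GC-1 arrays, -0.09, -0.10 and -0.18 on T3 arrays, and 0.01, 0.02 and -0.03 on vehicle arrays. For mitosis genes it was -0.10, -0.08 and -0.07 on GC-1 arrays, 0.001, -0.03 and -0.003 on T3 arrays, and 0.02, 0.03 and -0.05 on vehicle arrays. Subtracting the second from the first gave -0.15, -0.07 and -0.15 on GC-1 arrays, -0.09, -0.07 and -0.18 on T3 arrays, and between -0.012 and 0.012 on vehicle arrays. The ligand arrays did not overlap the vehicle arrays in this difference, while GC-1 and T3 arrays overlapped each other.

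Bright probe sets as a whole also differed between the ligand groups. Over all probe sets above the 75th percentile of mean signal, where most members lie, the median difference from vehicle was -0.03, -0.02 and -0.04 on GC-1 arrays, 0.03, 0.01 and -0.006 on T3 arrays, and within 0.01 of 0 on vehicle arrays. The T3 arrays with the widest distributions, replicates 1 and 2, were the ones with positive values. The part of this shift in the members' values was not tested.

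**Figure D4:**
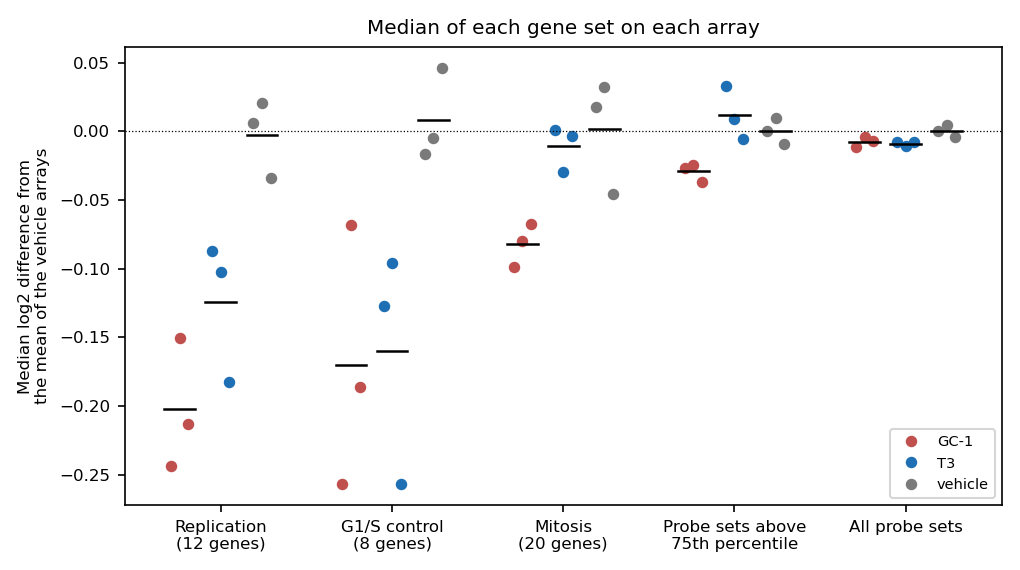
Median log2 difference from the mean of the vehicle arrays (vertical axis) for 3 sets of members, all probe sets above the 75th percentile of mean signal and all probe sets, with a point for each GC-1, T3 and vehicle array and a line at each group mean. Replication and S phase entry members are lower on every ligand array than on every vehicle array, mitosis members only on GC-1 arrays, and the bright probe sets are lower on GC-1 than on T3 arrays.

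GC-1 and T3 were compared directly at the same dose and time, as 1 pair of compounds. Of the 73 member probe sets, 0 differed at an adjusted p under 0.05 (limma), as did 0% of the whole array, and the smallest adjusted p among members was 0.197. At an unadjusted p under 0.05, 8 were lower and 2 higher with GC-1, against 6.65% and 7.4% of all probe sets. All 3 GC-1 arrays lay below all 3 T3 arrays in 14 of the 73, against 10.1% of all probe sets. The comparisons of each ligand with vehicle share the vehicle arrays, so their likeness to each other is not given as a result. A p that misses the threshold does not show that the compounds act alike.

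The median GC-1 minus T3 log2 difference was -0.067 for replication members, with 11 of 12 negative, and -0.062 for mitosis members, with 19 of 20 negative, against -0.005 over all probe sets. This direction depended on scaling: with the arrays brought to equal spread by their median absolute deviations the medians became 0.016 and 0.019, and with each array's interquartile range as a covariate the replication median became 0.025. Without T3 replicates 1 and 2 it was -0.02.

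Single intervals show which differences between the compounds these arrays leave room for. CDC20 differed most, by log2 -0.23 (95% confidence interval -0.35 to -0.11, limma adjusted p = 0.197), with GC-1 lower. With each gene by its brightest probe set, the next by p were CENPF (-0.14, interval -0.25 to -0.03), MCM5 (-0.14, -0.26 to -0.02), AURKB (-0.12, -0.23 to -0.01) and PLK1 (-0.12, -0.24 to -0.003). Their limma adjusted p lay between 0.261 and 0.347. In 2 dimmer BUB1 probe sets, at percentiles 51.8 and 14.9, p was smaller than for CENPF and GC-1 was higher. These differed by 0.18 (0.05 to 0.31) and 0.22 (0.07 to 0.38), with limma adjusted p = 0.25 and 0.24. The brightest BUB1 probe set differed by -0.07 (-0.19 to 0.05). TYMS differed by -0.06 (-0.16 to 0.04), MCM4 by -0.09 (-0.22 to 0.03), CDK2 by 0.05 (-0.06 to 0.16) and MKI67 by -0.03 (-0.14 to 0.07). E2F1 was higher with GC-1 by 0.16 (-0.03 to 0.34) in its brighter probe set and lower by 0.02 (-0.13 to 0.09) in the other.

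**Figure D5:**
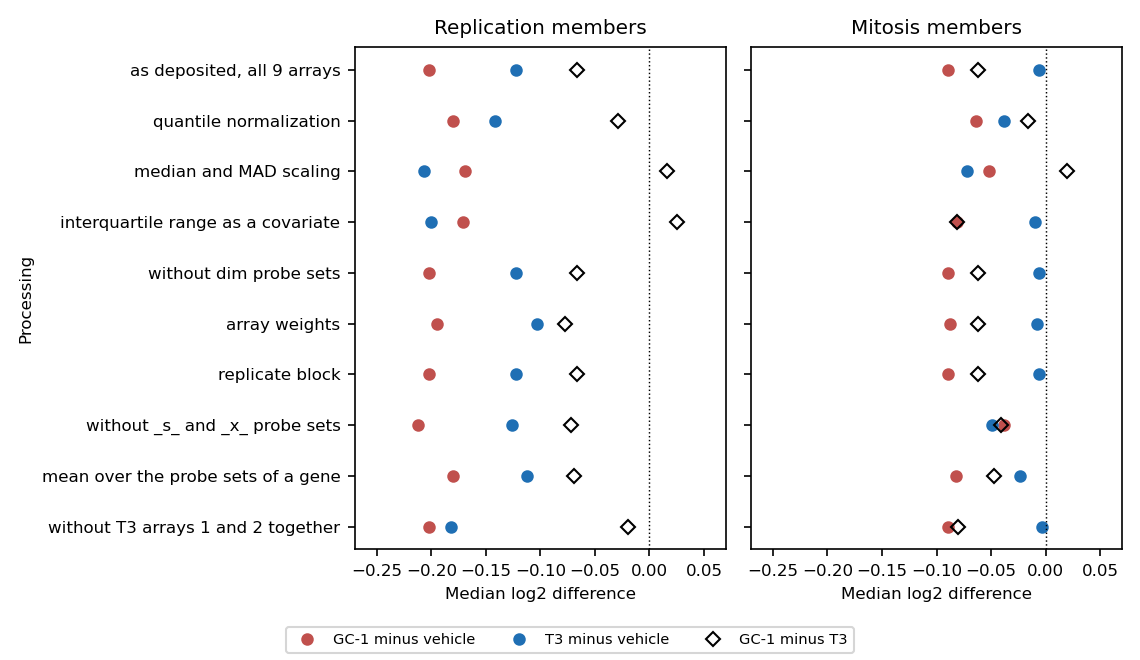
Median log2 difference (horizontal axis) of the replication members (left) and mitosis members (right) under 10 ways of processing (vertical axis), for GC-1 minus vehicle, T3 minus vehicle and GC-1 minus T3. GC-1 minus vehicle stays left of 0 in both panels under all of them, and GC-1 minus T3 crosses to the right of 0 with median and MAD scaling in both panels and with the interquartile range as a covariate for the replication members.

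Further genes of the same machinery were read from lists that hold none of the members. Of 48 measured genes in a list of 50 other replication genes, 6 fell and 0 rose with GC-1, and 5 fell and 0 rose with T3 (limma). With GC-1 these were the helicase subunit GINS2 (log2 -0.32, adjusted p = 0.00822), the DNA polymerase epsilon subunit POLE2 (-0.30), the origin recognition subunit ORC1 (-0.27), the replication fork protein TIPIN (-0.47), the clamp loader subunit RFC3 (-0.25) and the replication factor MCM10 (-0.29). With T3 they were POLE2 (-0.23), RPA2, which coats single-stranded DNA (-0.22), POLE3, another subunit of polymerase epsilon (-0.19), GINS2 (-0.21) and ORC5, of the origin recognition complex (-0.29). GINS2 read 10.01, 10.11 and 10.01 on GC-1 arrays, 10.18, 10.13 and 10.14 on T3 arrays, and 10.32, 10.42 and 10.33 on vehicle arrays, with no overlap between the 3 groups. The median log2 change of the 48 genes was -0.17 with GC-1 and -0.09 with T3. Of them 45 and 41 were negative, against 6226 and 6703 of all 11963 genes.

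Of 54 measured genes in a list of 56 other mitosis genes, 1 fell with GC-1, the kinetochore gene CENPN (log2 -0.23), and 4 fell with T3, CENPN (-0.19), the cytokinesis genes ECT2 (-0.25) and KIF23 (-0.24), and FBXO5 (-0.22), an inhibitor of the anaphase ubiquitin ligase. The GC-1 count is near the 1.16% of all genes that fell. When arrays were left out singly the counts ran from 0 to 4 with GC-1 and from 0 to 3 with T3. None rose, and the median log2 change was -0.11 with GC-1 and -0.06 with T3. Of the 54 genes, 51 were negative with GC-1 and 45 with T3. All 3 ligand arrays lay below all 3 vehicle arrays in 29 with GC-1 and 18 with T3, against 17.3% and 13.3% of all genes. At an unadjusted p under 0.05, 19 and 15 were lower, against 9.49% and 11.1% of all genes. Of 32 measured genes in a list of 36 other regulators of S phase entry, 0 fell and 2 rose with both ligands. The T3 count is near the 4.51% of all genes that rose, and with GC-1 that share was 2.1%. GADD45B, a stress-induced gene of growth arrest, rose by log2 0.31 with GC-1 and 0.49 with T3 (limma adjusted p = 0.0135 and 0.000433), and its other 3 probe sets also rose with both. CDC34, a ubiquitin-conjugating enzyme, rose by 0.23 and 0.35. The median log2 change of the 32 genes was -0.04 with GC-1 and -0.008 with T3. With GC-1 20 were negative and 12 positive, and with T3 17 were negative and 15 positive. With arrays left out singly this list gave 0 to 5 changed genes with GC-1, 0 without GC-1 replicate 2 or 3 or vehicle replicate 3, and 2 throughout with T3. Rescaling gave 3 to 7 with T3, of which up to 5 were lower, and up to 3 were lower with GC-1 without T3 replicate 3.

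The number of calls moved when single arrays were left out. Each such fit also has fewer arrays, and the part of that in the counts was not tested. The share of all probe sets that passed was not counted in these fits. The 6 member probe sets that passed with GC-1 became 0 without vehicle replicate 1 or 3, 1 without vehicle replicate 2 or any GC-1 array, and 16 without T3 replicate 3. The 2 that passed with T3 became 0 without any of the vehicle arrays or GC-1 replicate 3, 1 without GC-1 replicate 2, T3 replicate 1 or T3 replicate 3, and 6 without T3 replicates 1 and 2 together. The 10 of the ligand mean became 0 without vehicle replicate 1 or 3, 2 without vehicle replicate 2, 3 without GC-1 replicate 1 or 3, and 6 without GC-1 replicate 2. Among the other replication genes the 6 that fell with GC-1 became 1 to 15 and the 5 that fell with T3 became 0 to 3 when arrays were left out singly. The medians moved less: leaving out each array in turn gave -0.23 to -0.18 for replication members with GC-1 and -0.14 to -0.09 with T3, and -0.11 to -0.06 for mitosis members with GC-1 and -0.03 to 0.01 with T3.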

How the data were processed

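The 9 HepG2 arrays (3 each of GC-1, T3 and vehicle) were used as 1 table of log2 signals that the authors deposited. Per the submitters' processing notes they were made with RMA (version not given in the sources used here). No source gives the log base, and base 2 was taken from the range of the values, 3.147 to 14.543. RMA compresses dim signals, so fold changes of dim probe sets are likely understated. Scanner files were not used here, so scan order and detection were not examined. Precision is limited by having 3 arrays a group.

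Of 22277 probe sets, 62 array controls were left out. The annotation gave 1 symbol for 19064 of the rest, several for 1043 and none for 2108, and 19052 of the 1-symbol probe sets matched the RefSeq gene table by Entrez identifier. Group means over all 9 arrays were fitted with limma 3.58.1 in R 4.3.3 (lmFit, eBayes, two-sided), adjusted by Benjamini-Hochberg over 22215 probe sets, and called at an adjusted p under 0.05. The fit was tested on simulated data.

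Values on every array are given for members past the threshold in any comparison, for the 5 with the smallest p in GC-1 or T3 against vehicle or GC-1 against T3, and for MKI67, PCNA, CCND1 and CDKN1A. RRM2 was named for its second probe set. Other pathway genes are named where their brightest probe set passed. The members, lists and tests were chosen with earlier results of these data known. Alternatives covered scaling, spread, dim or cross-matching probe sets, array weights, the groups fitted, a replicate block and left-out arrays. Those for the other pathway lists were chosen after seeing the data.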

Additional observations from a re-analysis of the deposited data

How the results depend on the processing

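The changes of TYMS, MCM4 and CDC20 with GC-1 and of CDK2 and E2F1 with T3, each in its brightest probe set, kept their direction under all alternatives run for them. Second probe sets, single changes in the ligand mean and single genes outside the members were not rerun. The replication and mitosis medians stayed negative against vehicle in every setting except that of the mitosis members with T3, which reached 0.01 without vehicle replicate 2. Member probe sets that passed numbered 6 with GC-1, 2 with T3 and 10 in the ligand mean. Under the alternatives, the share of all probe sets that passed was not counted. Larger or smaller member counts there can therefore not be set against the whole array. Quantile normalization gave 6 with T3, with mitosis medians of -0.038 for T3 and -0.017 for GC-1 minus T3. Median and MAD scaling gave 3 with GC-1 and 9 with T3, mitosis medians of -0.052 with GC-1 and -0.072 with T3, a replication median of -0.21 with T3, and GC-1 minus T3 medians of 0.016 (replication) and 0.019 (mitosis). The interquartile range as a covariate gave 7 with T3 and 21 in the ligand mean, and replication medians of -0.20 with T3 and 0.025 for GC-1 minus T3. Leaving out dim probe sets gave 22, 10 and 22 with GC-1, with T3 and in the ligand mean, where fewer probe sets were tested, and eBayes with trend and robust settings gave 24, 14 and 24. Array weights gave 22 with GC-1 and 17 in the ligand mean, and fitting only the groups compared gave 12 with GC-1 and 1 with T3. Leaving out probe sets that can match several transcripts gave 3, 1 and 5 of the 37 that remained, with mitosis medians of -0.038 with GC-1 and -0.0495 with T3. Without T3 replicates 1 and 2 the counts were 12, 6 and 16, and the replication medians -0.18 with T3 and -0.0197 for GC-1 minus T3. The replicate block gave 1 member probe set in each of the 3 comparisons with vehicle and 0 in GC-1 minus T3. The labels say nothing of what a shared number means, and the deviations of same-numbered arrays correlated between -0.262 and 0.0755 over the 9 pairs, none over 0.1, with 0 arrays correlating best with their own number. Apart from the left-out probe sets, the cause of these changes was not tested.

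Leaving out each array in turn gave 0 to 16 member probe sets with GC-1, 0 to 2 with T3, 0 to 12 in the ligand mean and 0 to 1 in GC-1 minus T3, where the 1, without T3 replicate 3, was the second CDC25A probe set (log2 -0.29, limma adjusted p = 0.0489, named after its value was seen). Medians ran from -0.23 to -0.18 (replication) and -0.11 to -0.06 (mitosis) with GC-1, from -0.14 to -0.09 and -0.03 to 0.01 with T3, and from -0.11 to -0.05 and -0.08 to -0.05 for GC-1 minus T3. The adjusted p over the alternatives ranged from 4.29e-05 to 0.247 for TYMS, 0.00127 to 0.142 for MCM4 and 0.00406 to 0.173 for CDC20 with GC-1, and from 0.00666 to 0.102 for CDK2 and 0.00832 to 0.153 for E2F1 with T3. In the other pathway lists the 3 rescalings gave 6 to 7 replication genes with GC-1 and 9 to 11 with T3, and 0 to 1 and 6 to 8 mitosis genes. Signal over background could not be read from these values, which limits what can be said of the dim E2F2, CCNE2 and second TYMS probe sets.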
